A study of Mus musculus with 18 samples.

Results

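Silencing of Erk3 was compared directly with silencing of Mk5 in myotubes that had received the albumin vehicle and no palmitate. The cells were C2C12, an established mouse myoblast line that fuses into myotubes when serum is lowered, so every library of the study came from 1 cell line. Confluent myoblasts were transfected, as differentiation began, with an siRNA pool against Erk3 (siErk3), a pool against Mk5 (siMk5) or a non-targeting pool (siNTC), so the silencing ran through the 6 days of differentiation that followed. The myotubes were then given either bovine serum albumin alone (BSA) or 0.5 mM palmitic acid carried on it (PA), for 16 h without serum. Libraries were made from poly(A) RNA with the strand kept, sequenced from both ends and counted as read pairs per gene. The comparison takes the 3 siErk3 BSA and the 3 siMk5 BSA libraries, 6 of the 18 in the series, chosen by their labels alone, and the genes with at least 10 read pairs in total over the 18 libraries, 21772 of the 55414 in the table. The 3 siNTC BSA libraries show the level without either silencing, and the 3 siErk3 PA and 3 siMk5 PA libraries show the same contrast with palmitate. Nothing in the labels says whether the libraries of a group came from separate cultures, so the p-values measure the spread between these libraries, which may be technical. Each gene was silenced by a single pool of siRNAs, so effects of the target and of the pool's own sequences cannot be told apart.

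Erk3, encoded by Mapk6, is an atypical MAP kinase: its activation loop differs from that of the classical kinases, and the protein is made and degraded quickly. Mk5, encoded by Mapkapk5, is a protein kinase that binds Erk3, and the pair activate each other, which is why silencing one is a natural comparator for silencing the other. Many of the genes described below are interferon-stimulated genes. In that pathway, sensors of foreign RNA or DNA lead to secretion of interferons, the interferon receptor activates a complex that holds Stat2 and Irf9, and this complex switches on genes whose products degrade RNA, block translation, trap viral particles or load peptides on MHC class I. Muscle cells, like most cells, can run this program.

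The 6 libraries held between 19890880 and 26995675 assigned read pairs, and all 18 between 13041979 and 28496727. One property of the RNA moved with the silencing. Rn18s-rs5, a gene for 18S ribosomal RNA, which poly(A) selection should leave behind, took 2.96, 1.82 and 1.50% of the pairs in siErk3 BSA and 10.8, 12.9 and 8.39% in siMk5 BSA, with siNTC BSA at 2.56, 7.17 and 5.64%. With palmitate the order was not the same, at 3.74 to 6.77% in siErk3 PA and 1.71 to 6.69% in siMk5 PA. The labelled cell type was present: all 8 myotube markers were measured, and their summed level was 13540 to 15270 CPM (read pairs per 1e6 assigned pairs after TMM scaling) in siErk3, 12300 to 14220 in siMk5 and 13600 to 14300 in siNTC. The 6 markers of cycling myoblasts summed to 903.2 to 943 CPM in siErk3 and 910 to 944.2 in siMk5. Markers of adipocytes (3.845 to 4.687 against 4.227 to 5.16 CPM), macrophages (2.193 to 2.409 against 1.96 to 2.18) and endothelial cells (1.349 to 2.254 against 1.341 to 1.613) were near 0. Those of fibroblasts were not, at 9251 to 9520 CPM in siErk3 and 8546 to 10830 in siMk5, and those of osteoblasts summed to 77.84 to 84.25 against 81.33 to 83.47. In all, 0 of the 36 marker genes tested over 7 cell types were called. In bulk RNA, fewer cells of a type and less RNA per cell cannot be told apart.

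The target of siErk3 was reduced and the target of siMk5 was measured too thinly to say. Mapk6 (ENSMUSG00000042688, GRCm39 chr9:75276344-75317287, minus strand) stood at 56.6, 60.4 and 55.2 CPM in siErk3 BSA, at 136, 135 and 137 in siMk5 BSA and at 135, 129 and 133 in siNTC BSA. The siErk3 libraries lay far below both other groups, which shared 1 range. The log2 fold change of siErk3 over siMk5 was -1.24 (SE 0.059, n = 3 per group, adjusted p = 6.53e-15 in edgeR's quasi-likelihood test), and it was -0.92 with palmitate. An exact two-sided permutation test of 3 libraries against 3 cannot go below 0.1, the value it gave here. Mapkapk5 (ENSMUSG00000029454, GRCm39 chr5:121663101-121683968, minus strand) read 1.18, 2.01 and 1.70 CPM in siMk5, 2.15, 1.98 and 2.18 in siErk3 and 2.53, 2.54 and 2.32 in siNTC. These are 27, 40 and 33 read pairs in siMk5 against 51, 47 and 61 in siErk3, and siMk5 replicate 2 lay inside the siErk3 range. All siMk5 libraries lay below all siNTC libraries. The difference between the silencings was 0.39 log2 units (SE 0.20, adjusted p = 0.643 in edgeR), and siMk5 against siNTC gave -0.61 (adjusted p = 0.469 in edgeR). Most of Mapkapk5 lies under a second annotated gene on the same strand, Gm42878, and read pairs that fit both were not counted. The reduction of Mk5 therefore cannot be judged from these counts. At the protein level, the authors reported Western blots as their check of both silencings. They also reported less Erk3 protein after Mk5 silencing. The 18 genes tested on the atypical MAP kinase list, Mapk6 among them, had a median of 0.04, and Mapk6 was the 1 member called.

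The silencings differed in 128 genes, and those genes were mostly higher with siErk3. A gene was called when its adjusted p was under 0.05 in edgeR and its fold change over 1.3. By that rule 128 of 21772 genes (0.588%) were called, 105 higher with siErk3 (0.482%) and 23 lower (0.106%), and 59 of them differed by more than 1 log2 unit (43 higher, 16 lower). Of the 105 higher genes, 56 were on 1 of 11 lists of interferon pathway genes, 5 were on lists of contractile genes and 41 were on no list. In 127 of the 128 the siErk3 and siMk5 libraries did not overlap, against 15.3% of all genes. The exception was the 7SK RNA gene Rn7sk, chosen after its values were seen, at 1.99, 0.506 and 0.716 CPM in siErk3 and 3.92, 2.26 and 1.70 in siMk5. At an unadjusted p under 0.05 there were 1847 genes (8.5%).

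**Figure D1:**
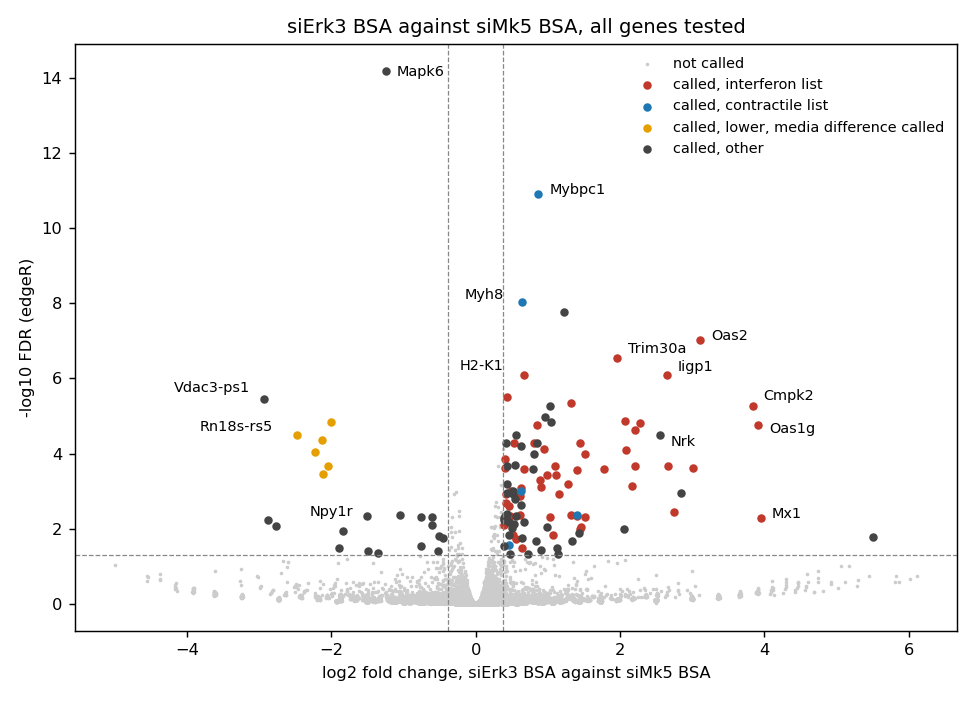
Difference between the silencings in BSA for every gene tested. The horizontal axis is the log2 fold change of siErk3 over siMk5 and the vertical axis is -log10 of the adjusted p from edgeR, with dashed lines at an adjusted p of 0.05 and a fold change of 1.3; red points are called interferon-list genes, blue points called contractile-list genes, orange points called lower genes whose difference also changed with palmitate, dark points other called genes and grey points genes not called. The red points all lie on the right, the orange ones all on the left.

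Genes of the interferon pathway made up more than any other group of the higher genes. Of 162 such genes tested, 56 were higher with siErk3 and 0 lower, and 139 had a log2 fold change above 0. Their median was 0.39 against 0.00 for all genes, of which 11158 lay above 0 and 10493 below. The summed level of the 162 genes was 3609 to 3928 CPM in siErk3, 3019 to 3312 in siMk5 and 2968 to 3176 in siNTC, so the siErk3 libraries lay above both other groups. Within siErk3 the replicates were not alike: replicate 1 held the highest level in 53 of the 56 called genes, and leaving it out reduced the number of called members to 44. Leaving out siMk5 replicate 1 also gave 44.

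Promoters were searched for a sequence known from interferon-stimulated genes. Activated interferon factors bind elements built from a pair of GAAA blocks set a short distance apart, so each promoter, taken as the 250 bases before to 50 bases after the start in RefSeq (GRCm38.p6), was searched for GAAANNGAAA on either strand (TTTCNNTTTC on the other). The motif was present in 27 of the 44 called interferon-list genes with a promoter in the table (61.36%), in 29 of the 83 interferon-list genes that were not called (34.94%), in 6 of the 33 other genes called higher (18.18%), in 0 of the 10 called lower and in 482 of all 12756 (3.78%). Below are 30 bases around it for the 8 called interferon-list genes with the smallest adjusted p among those that hold it before the start. They run 5′ to 3′ along the gene's own strand, with the motif in capitals. Only copies that do not overlap are in capitals. The windows of Oas1g, Bst2, Oas1a and Isg15 hold a further, overlapping copy that is partly in small letters. A match describes the letters in this window and is not a measured binding site.
Trim30a, chr7:104465210-104465239, minus strand: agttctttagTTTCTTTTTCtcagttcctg
B2m, chr2:122147538-122147567, plus strand: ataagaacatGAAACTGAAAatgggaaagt
Oas1g, chr5:120887614-120887643, minus strand: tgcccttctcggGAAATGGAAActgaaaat
Ifit1, chr19:34640794-34640823, plus strand: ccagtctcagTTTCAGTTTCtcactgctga
Bst2, chr8:71537583-71537612, minus strand: ggcattccagGAAAATGAAActgaaaggct
Oas1a, chr5:120907526-120907555, minus strand: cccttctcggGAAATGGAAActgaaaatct
Isg15, chr4:156200865-156200894, minus strand: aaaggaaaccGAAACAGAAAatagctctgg
Phf11b, chr14:59341361-59341390, minus strand: cacatttagaGAAAAAGAAActagaaacta
The windows of Oas1g and Oas1a, neighbouring copies of 1 family, share most of their letters.

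At the head of the pathway some sensor genes were called, where 0.588% of all genes were. Of 9 RNA sensor genes 2 were higher in BSA and 8 in PA. In BSA 9 lay above 0 and the median was 0.34. Rigi, which encodes the cytosolic receptor for uncapped viral RNA, read 46.3, 38.4 and 35.1 CPM in siErk3 and 27.8, 26.7 and 31.7 in siMk5, a log2 fold change of 0.47 (SE 0.093, adjusted p = 0.0045 in edgeR). The groups did not overlap, but without siErk3 replicate 1 or siMk5 replicate 2 the call was lost, and the value ranged from 0.366 to 0.571 when single libraries were left out. Of 14 DNA sensor and Ifi200 genes 4 were higher, with a median of 0.29 (0.30 when genes without a count in 1 group were set to their bound of 3 counts, or left out where both groups were at or under it). Sting1, the adaptor that DNA sensing converges on, stood at -0.01.

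Next in the pathway come the ligands and receptors, where 1 gene was called, and the transcription factors, where 3 were. Of 12 genes for interferons, their receptors and feedback regulators 1 was higher, and the median was 0.01. That gene was Usp18, which removes ISG15 from proteins and dampens the receptor: it read 5.45, 3.67 and 2.83 CPM in siErk3 and 0.567, 1.01 and 0.877 in siMk5, every siErk3 library being above every siMk5 one (2.28, SE 0.29, adjusted p = 1.52e-05 in edgeR). Ifnb1, interferon beta, had no read pair in any of the 9 BSA libraries, which allows up to 3 per library. With palmitate it had 0.219, 0.253 and 0.248 CPM in siErk3 and 0.0449, 0.0466 and 0.103 in siMk5. These levels rest on very few read pairs, and Ifnb1 was not called there. The 1 member of this list called in PA was again Usp18. The receptor subunit gene Ifnar1 stood at -0.01 and the receptor kinase gene Jak1 at 0.03.

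Of 13 genes for IRF and STAT factors 3 were higher and the median was 0.03. Irf7, which carries the pathway's positive feedback, read 7.27, 5.74 and 4.69 CPM in siErk3, 1.66, 2.11 and 2.94 in siMk5 and 1.54, 2.75 and 1.56 in siNTC. All 3 siErk3 libraries exceeded the other 6, with a log2 fold change over siMk5 of 1.40 (SE 0.22, adjusted p = 0.000273 in edgeR). Irf9, the DNA-binding member of the complex formed after receptor activation, was higher by 0.61 (adjusted p = 0.00134 in edgeR). Its partner Stat2 was higher by 0.42, a call lost without siErk3 replicate 1, with 0.351 to 0.517 over single libraries left out. Stat3 stood at -0.02 and Irf1 at 0.09.

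The effector families held the largest differences among the called interferon-list genes. Of 9 genes of the Oas family and RNase L, which together make a signal from double-stranded RNA and cut RNA in response, 5 were higher and the median was 1.65. Oas2 (ENSMUSG00000032690, GRCm39 chr5:120868398-120887918, minus strand) read 19.6, 11.7 and 8.59 CPM in siErk3, 1.40, 1.26 and 1.91 in siMk5 and 1.76, 2.88 and 1.37 in siNTC. The siErk3 values were several times those of either other group, with replicate 1 on top, at 3.11 log2 units over siMk5 (SE 0.30, adjusted p = 9.41e-08 in edgeR). Oasl2, another family member, read 23.9, 17.5 and 14.4 against 7.15, 6.19 and 8.98 CPM, a difference of 1.32. Oas1g had the largest fold of the family, 3.92 (SE 0.51, adjusted p = 1.76e-05 in edgeR), from 35, 26 and 18 read pairs against 1, 2 and 1. Oas1a differed by 2.09, but it shares 97.2% of its exonic bases with Oas1g at 98.0% identity, so how read pairs fell between the pair is uncertain.

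Of 8 genes for the Ifit proteins, which bind foreign RNA ends, with Rsad2 and Cmpk2, 5 were higher and the median was 2.18. Ifit1 read 13.2, 7.93 and 4.62 CPM in siErk3, 1.61, 1.81 and 2.06 in siMk5 and 2.25, 2.54 and 1.84 in siNTC (2.21, SE 0.29, adjusted p = 2.31e-05 in edgeR). The siErk3 libraries spread over a wide range and still stayed above the other 6. Rsad2, which encodes viperin, differed by 3.01 log2 units, and its chromosome neighbour Cmpk2, a mitochondrial nucleotide kinase, by 3.84 from 68, 36 and 40 read pairs against 2, 3 and 3. Ifit3 differed by 2.20, from 13.2, 6.71 and 4.15 CPM against 1.66, 1.41 and 2.06, and shares 95.8% of its exonic bases with Ifit3b, so the split between the pair is uncertain. Ifit2 was among the members not called, at 0.16.

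Of 18 interferon-inducible GTPase genes, whose products attack the membranes around intracellular pathogens, 7 were higher, 16 lay above 0 and the median was 0.62. Iigp1 read 7.56, 6.12 and 4.22 CPM in siErk3 and 1.00, 0.553 and 1.24 in siMk5 (2.65, SE 0.28, adjusted p = 7.85e-07 in edgeR). Gbp7 differed by 1.11 and Irgm1, a regulator of the other immunity GTPases, by 0.41, from 51.0, 49.6 and 45.9 CPM against 37.6, 34.9 and 37.8. None of these groups of 3 overlapped. Gbp2 was not called in BSA, at 0.39 (adjusted p = 0.366 in edgeR).

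Of 23 genes for MHC class I and its peptide loading 5 were higher, 22 lay above 0 and the median was 0.27. B2m, the light chain of class I molecules (ENSMUSG00000060802, GRCm39 chr2:121978167-121983564, plus strand), read 248, 225 and 240 CPM in siErk3, 166, 169 and 192 in siMk5 and 164, 169 and 163 in siNTC (0.44, SE 0.050, adjusted p = 3.18e-06 in edgeR). H2-K1, a heavy chain, read 122, 109 and 112 CPM against 65.2, 67.6 and 82.1, a difference of 0.67. The siErk3 libraries were the highest for both. H2-K1 shares 21.4% of its sequence with H2-D1, which differed by 0.41, a call that was lost without siMk5 replicate 1 (0.361 to 0.474 over single libraries left out). Psmb8, a catalytic subunit of the immunoproteasome, differed by 1.31, from 2.03, 1.69 and 1.72 CPM against 0.785, 0.855 and 0.516.

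Of 11 genes for ISG15 conjugation and interferon-induced Parps 5 were higher and 11 lay above 0, with a median of 0.30. Isg15, the ubiquitin-like modifier itself, read 11.2, 8.10 and 5.33 CPM in siErk3, 2.49, 2.77 and 3.35 in siMk5 and 2.81, 2.96 and 2.69 in siNTC (1.51, SE 0.22, adjusted p = 0.000104 in edgeR). Parp14, an ADP-ribosyltransferase, differed by 0.63 and Parp12 by 0.15, the latter not called. Of 23 genes for Mx proteins and other restriction factors 11 were higher and the median was 0.58 (0.55 with such genes treated the same way). Bst2, or tetherin, which holds budding virus at the membrane, read 29.0, 22.7 and 18.7 CPM against 10.16, 11.5 and 14.8 (0.95, adjusted p = 7.49e-05 in edgeR). Trim30a, which restrains inflammatory signalling, read 10.7, 8.01 and 8.19 against 2.27, 2.06 and 2.58 CPM (1.96, adjusted p = 2.88e-07 in edgeR). Mx1 was barely detected, with 12, 4 and 9 read pairs in siErk3 and 0, 1 and 0 in siMk5, and its call was lost without siMk5 replicate 1 (3.436 to 5.895 over single libraries left out).

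Of 25 other interferon-stimulated genes 10 were higher and the median was 0.43 (0.40 so treated). Ifi44 read 9.68, 7.59 and 5.90 CPM in siErk3 against 1.44, 1.56 and 2.53 in siMk5 (2.07, adjusted p = 1.37e-05 in edgeR), and Phf11b differed by 2.67, from 1.23, 1.14 and 1.11 against 0.218, 0.201 and 0.103 CPM. The genes Trim25, Adar and Eif2ak2 passed the adjusted p and not the fold: Trim25, a ligase that activates RIG-I, stood at 0.34 (adjusted p = 0.00345 in edgeR), Adar, an RNA-editing enzyme, stood at 0.30 and Eif2ak2, the kinase PKR, at 0.31. Of 26 chemokine and cytokine genes 1 was higher and 1 lower, with a median of -0.09 (-0.11 so treated). Cxcl10, a chemokine for T cells, read 1.73, 1.81 and 1.18 CPM against 0.131, 0.352 and 0.671 (2.05), a call lost without siMk5 replicate 1 or 2 (1.599 to 2.705 over single libraries left out). The lower one was Cxcl5, which attracts neutrophils, at 2.28, 1.60 and 1.43 CPM against 2.75, 3.17 and 5.11 (-1.05). Its call was lost without replicate 3 of either silencing (-1.253 to -0.745).

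**Figure D2:**
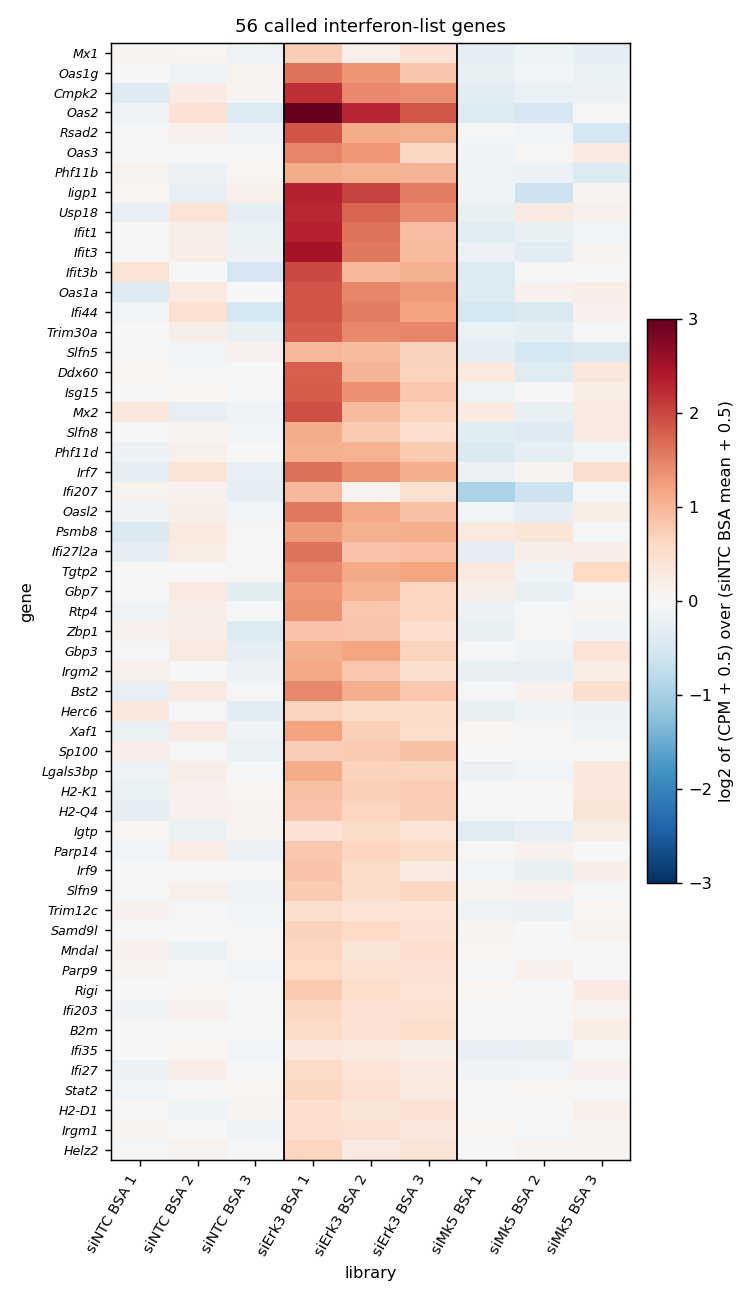
The 56 called interferon-list genes (rows) in the 9 BSA libraries (columns). Colour is log2 of the CPM plus 0.5 over the siNTC BSA mean plus 0.5. Replicate 1 of siErk3 is the highest of its group in 53 genes. In 55 of the 56 genes all 3 siErk3 libraries exceeded all 3 siNTC libraries. The genes were chosen as higher in these same siErk3 libraries, and the share over all genes was not counted.

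A few contractile genes were higher with siErk3, led by Mybpc1 and Myh8. Over 5 lists of contractile genes, 100 tested, 5 were called higher and 0 lower, 80 lay above 0 and the median was 0.11 in BSA and -0.01 in PA. Mybpc1, the slow isoform of myosin-binding protein C (ENSMUSG00000020061, GRCm39 chr10:88354141-88441014, minus strand), read 124, 125 and 136 CPM in siErk3, 72.8, 69.4 and 68.7 in siMk5 and 104, 86.3 and 90.5 in siNTC. The 3 groups formed 3 separate bands, with siNTC between the silencings, and the siErk3 to siMk5 difference of 0.87 (SE 0.056, adjusted p = 1.21e-11 in edgeR) was the most significant among the genes higher with siErk3. Against siNTC it was called in both directions, at 0.46 with siErk3 and -0.41 with siMk5, comparisons that share the siNTC libraries.

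Myh8, the perinatal myosin heavy chain (ENSMUSG00000055775, GRCm39 chr11:67167950-67199460, plus strand), read 478, 478 and 560 CPM in siErk3, 326, 306 and 340 in siMk5 and 352, 329 and 345 in siNTC. The siMk5 and siNTC libraries shared a range and siErk3 lay above it, by 0.64 over siMk5 (SE 0.055, adjusted p = 9.5e-09 in edgeR). It shares 1297 exonic bases with Myh2. Of the 11 myosin heavy chain genes tested it was the 1 called between the silencings. The embryonic chain Myh3 differed by 0.28 (adjusted p = 0.00196 in edgeR), below the fold limit, and the adult fast chains Myh1 and Myh4 stood at 0.17 and 0.02.

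Of 42 genes of the sarcomere, Z-disc and M-band 3 were higher and 36 lay above 0, with a median of 0.13. Myot, the Z-disc protein myotilin, read 13.9, 15.9 and 15.3 CPM in siErk3, 10.3, 11.4 and 7.27 in siMk5 and 14.7, 13.04 and 15.9 in siNTC (0.63, SE 0.11, adjusted p = 0.00101 in edgeR). Here siErk3 and siNTC shared a range and siMk5 was the low group. Smtnl2, a smoothelin-like protein, differed by 1.41, from 1.73, 2.28 and 1.90 CPM against 0.916, 0.604 and 0.671, with siNTC at 0.773, 0.708 and 0.757. Ttn, Acta1 and Des, the genes for titin, skeletal actin and desmin, stood at -0.06, 0.13 and 0.06.

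Of 23 genes of calcium handling in the sarcoplasmic reticulum 1 was higher, with a median of 0.04. It was Trdn, or triadin, which anchors calsequestrin to the release channel, at 14.2, 13.8 and 14.4 CPM in siErk3, 12.04, 10.9 and 7.69 in siMk5 and 21.1, 16.5 and 17.4 in siNTC (0.46, adjusted p = 0.026 in edgeR). Both silencings lay below siNTC, and the call was lost without any 1 of 5 of the 6 libraries (0.296 to 0.599). The release channel gene Ryr1 stood at 0.20 and the pump gene Atp2a2 at -0.02. None of the 12 myosin light chain genes (median 0.06) or the 12 troponin and tropomyosin genes (median 0.02) was called.

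**Figure D3:**
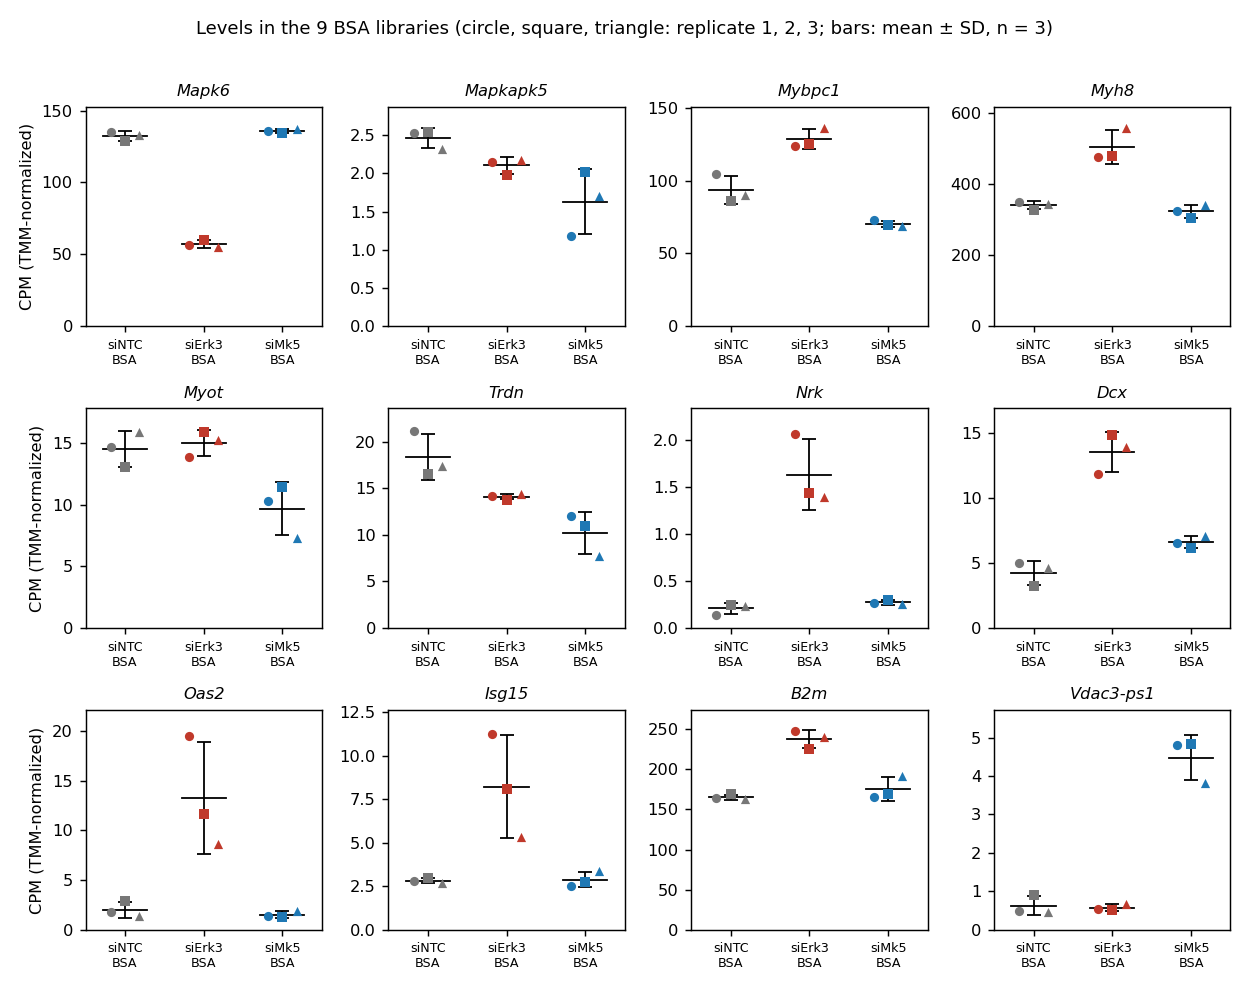
Level of 12 genes in the 9 BSA libraries. Each panel is 1 gene, with CPM on a vertical axis starting at 0; circles, squares and triangles are replicates 1, 2 and 3 and bars are the mean ± SD of 3 libraries. Mapk6 is low with siErk3, Mybpc1 takes 3 levels, Myot is low with siMk5, the interferon genes Oas2, Isg15 and B2m are high with siErk3, and Vdac3-ps1 is high with siMk5.

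Among the higher genes on no list the median was 0.63. Of the 49 higher genes outside the interferon lists, replicate 1 was the top siErk3 library in 17, replicate 2 in 8 and replicate 3 in 24. The lists are not complete. Iigp1c and Gvin2, named like the list members Iigp1 and Gvin1, were among the 49, which may hold further interferon genes. Nrk, a protein kinase gene on the X chromosome, read 2.07, 1.43 and 1.40 CPM against 0.262, 0.302 and 0.258 (2.55, SE 0.34, adjusted p = 3.19e-05 in edgeR), and its difference in PA was also 2.55.

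Dcx, which encodes the microtubule-binding protein doublecortin, read 11.9, 14.8 and 13.9 CPM in siErk3, 6.58, 6.19 and 7.07 in siMk5 and 4.99, 3.21 and 4.59 in siNTC. The 3 groups formed separate bands with siNTC lowest, and the silencings differed by 1.04 (SE 0.12, adjusted p = 5.34e-06 in edgeR). Frem2, an extracellular matrix protein of basement membranes, read 35.4, 40.1 and 42.7 against 27.6, 28.5 and 23.9 CPM (0.56). Prr32 differed by 0.95 and Apol9a, an apolipoprotein L gene, by 1.04, from 13.3, 11.2 and 11.1 against 5.41, 6.09 and 5.88 CPM. Apol9a shares 30.4% of its sequence with Apol9b. A pair of metabolic genes were higher: the fatty acid transporter Cd36 by 0.46, a call lost without siMk5 replicate 2 or 3 (0.362 to 0.618), and the mitochondrial folate enzyme Aldh1l2 by 0.43, lost without siMk5 replicate 1 (0.337 to 0.531).

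The genes lower with siErk3 were fewer, and several of them moved with the 18S ribosomal RNA. Apart from Mapk6, the clearest was Vdac3-ps1, a transcribed pseudogene of the mitochondrial channel gene Vdac3 (ENSMUSG00000075053, GRCm39 chr13:18205326-18206178, minus strand). It read 0.549, 0.506 and 0.680 CPM in siErk3, 4.80, 4.83 and 3.82 in siMk5 and 0.492, 0.917 and 0.473 in siNTC. The siMk5 libraries stood alone, with siErk3 and siNTC in 1 low range (-2.93, SE 0.34, adjusted p = 3.57e-06 in edgeR, and 2.77 for siMk5 over siNTC). With palmitate siMk5 read 5.08, 4.80 and 1.19 CPM and siErk3 1.01, 0.869 and 0.993, so siMk5 PA replicate 3 came close to the siErk3 range. All 853 bases of the pseudogene match Vdac3 at a mean identity of 99.5%, which makes the assignment of its read pairs uncertain. Vdac3 itself read 104, 111 and 111 CPM in siErk3 and 101.6, 101.4 and 103.1 in siMk5 (0.09, adjusted p = 0.512 in edgeR).

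A set of 6 lower genes was formed from those whose difference was also called to change with palmitate. They were Rn18s-rs5, ENSMUSG00000118642, Lars2, Rgs9, Gm15564 and Mir6236, and they moved with the 18S RNA. Their median was -2.13, and all 6 were highest in siErk3 replicate 1 within siErk3 and in siMk5 replicate 2 within siMk5. Their median in PA was 0.44, but the choice of the set had already used the PA values. Rn18s-rs5, whose shares are given above, differed by -2.48 (SE 0.33, adjusted p = 3.2e-05 in edgeR). Lars2, the gene for the mitochondrial leucyl-tRNA synthetase, read 733, 410 and 382 CPM in siErk3, 2513, 2684 and 1472 in siMk5 and 827, 1804 and 1325 in siNTC (-2.13). The siMk5 and siNTC ranges overlapped, and siErk3 lay below both. Gm15564 shares 8.6% of its sequence with Lars2, and ENSMUSG00000118642 lies across the 18S gene on the opposite strand. Rgs9, a regulator of G protein signalling, read 3.80, 1.98 and 2.50 against 13.1, 17.4 and 8.15 CPM.

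With the 18S share of each library entered as a covariate, the number of called genes was 78, with 74 higher and 4 lower, and 64 of them were among the 128. Of the interferon-list genes 60 were then called, Oas2 differing by 4.16 and Isg15 by 2.03. Of the 56 called without the covariate 52 kept the call, and Ddx60 (1.77), Mndal (0.46), Trim12c (0.79) and Igtp (0.80) lost it. Mapk6 (-1.38), Mybpc1 (0.66), Myh8 (0.45) and Vdac3-ps1 (-3.77) were also called. The difference of Rn18s-rs5 fell to -0.02, which was fixed in advance because the covariate is that gene's own share. That of Lars2 fell to -0.08, while Rgs9 (0.245), Gm15564 (0.324) and Mir6236 (0.354) turned positive, none called. Dcx (0.36), Frem2 (0.42), Prr32 (0.86), Myot (0.61), Smtnl2 (1.65), Trdn (0.34), Cd36 (0.17), Aldh1l2 (0.40), Cxcl10 (2.01) and Cxcl5 (-1.07) lost their calls. In BSA the share differs between the silencings without overlap, so the part of the RNA composition in these results cannot be told apart from the silencing.

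Of the other 17 lower genes the median was -1.24 in BSA and -0.09 in PA. They were set apart from the 6 by the test of the media, not by 18S. With the 18S covariate Gm55276 went from -2.88 to -0.58, Gm56171 from -2.77 to -1.02 and Fam43a from -0.61 to -0.22. Gm55094 went from -1.85 to 0.76. Mapk6, Vdac3-ps1, Cd28 (-0.76 to -0.81) and Cxcl5 (-1.05 to -1.07) did not shrink. Npy1r, a receptor for neuropeptide Y, read 0.507, 0.675 and 0.501 CPM in siErk3, 1.70, 1.56 and 1.50 in siMk5 and 0.843, 1.12 and 0.709 in siNTC, 3 bands with siNTC between (-1.50, SE 0.29, adjusted p = 0.00456 in edgeR). Its call was lost with the 18S covariate (-1.46). The collagen gene Col23a1 read 5.11, 5.14 and 5.01 CPM in siErk3 against 7.63, 9.36 and 6.29 (-0.61). That call was lost without siErk3 replicate 3 or siMk5 replicate 2 (-0.734 to -0.454) and with the covariate (-0.29). Of the genes called lower, 21 were on no list.

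On 26 of the 44 lists, among them most lists of metabolism, growth and stress, no member was called. They held 573 tested genes. All 40 cytosolic ribosomal protein genes lay above 0 with a median of 0.07, and none was called. The 58 nuclear-encoded subunits of the respiratory chain had a median of 0.02 and the 15 mitochondrially encoded genes one of -0.03. Medians were 0.07 for 34 genes of glycolysis and glycogen, 0.05 for 28 sterol genes, 0.02 for 18 NF-kappaB genes, 0.05 for 17 conventional MAP kinases and 0.03 for 23 AP-1 and early growth response genes. On 10 of the 26 lists at least 1 member passed the adjusted p and not the fold, with the smallest adjusted p, 0.000208 in edgeR, on the list of myosin light chains. Another was Spry1, a feedback inhibitor of receptor signalling on the MAP kinase phosphatase list (17 genes, median -0.02), at -0.25 (adjusted p = 0.0263 in edgeR). The 13 genes of the RNA interference machinery, which siRNAs load, had a median of 0.03 with none called.

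The 3 PA libraries of each silencing were separate from the BSA libraries, so they show the contrast a second time, under palmitate. There 224 genes (1.03%) were called, 186 higher with siErk3 and 38 lower. The 88 genes called in the same direction in both media were 68.8% of the BSA calls and 39.3% of the PA calls, and 0 were called in opposite directions. The higher genes recurred more often than the lower ones: 83 of 105 (79%) against 5 of 23 (21.7%), a difference that was not tested. The 5 were Mapk6, Vdac3-ps1, Cd28, Col23a1 and Gm22303. Of the 56 interferon-list genes 55 were called again, and 105 of the 162 tested were called higher in PA, where the list median was 0.85.

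**Figure D4:**
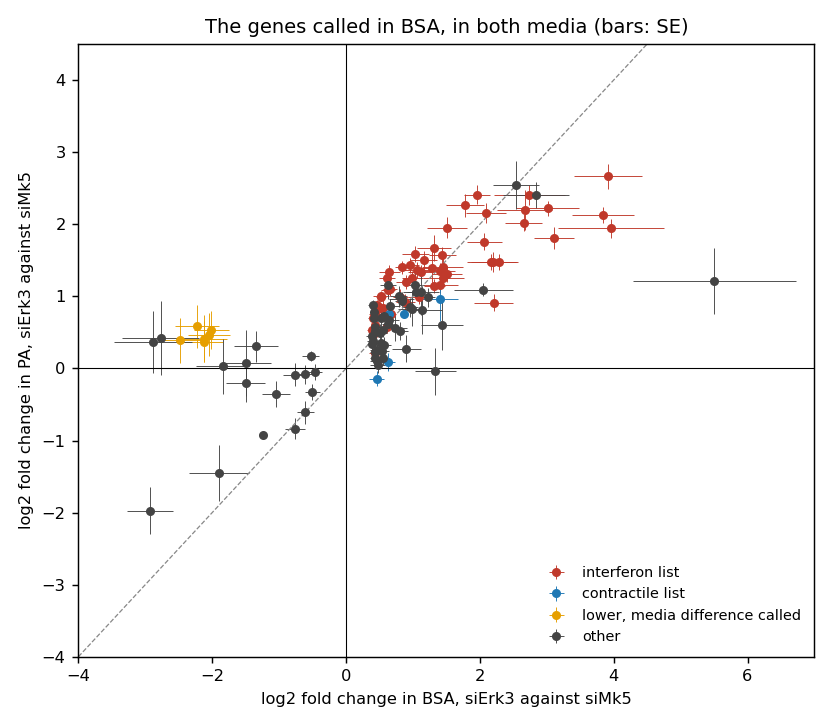
The 128 genes called in BSA, with their log2 fold change of siErk3 over siMk5 in BSA on the horizontal and in PA on the vertical axis. Bars are standard errors and the dashed line marks equal values. Higher genes scatter about the line (medians 0.84 in BSA and 0.97 in PA), while most lower genes sit near 0 on the PA axis (medians -1.50 and 0.03).

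The levels behind these contrasts differed between the media. Oas2 reached 83.7, 87.5 and 87.2 CPM in siErk3 PA and 26.7, 17.1 and 30.0 in siMk5 PA, a smaller log2 difference (1.81) at a higher level than in BSA, and Isg15 reached 121, 125 and 124 against 60.3, 40.02 and 49.3 (1.31). In PA the spread between the siErk3 replicates of both genes was narrow, and replicate 1 did not lead. Mybpc1 read 85.5, 80.4 and 80.6 CPM against 50.5, 49.0 and 46.4 in PA (0.75) and Myh8 387, 365 and 345 against 220, 220 and 208 (0.76), neither overlapping. Myot stood at 0.09 in PA and Trdn at -0.14, both uncalled.

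When the change of the contrast with the medium was tested itself, 16 genes (0.0735%) were called. Of these, 6 were the lower genes grouped with 18S above, a set that was formed from these same calls. Their differences were negative in BSA and lay from 0.37 to 0.59 under palmitate. Of the 105 higher genes, 0 were among the 16. Interferon genes with a larger difference in PA included Gbp2 (0.39 in BSA, 1.59 in PA), Ifit2 (0.16 and 0.91), Parp12 (0.15 and 0.88) and Tor3a (0.09 and 0.66).

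**Figure D5:**
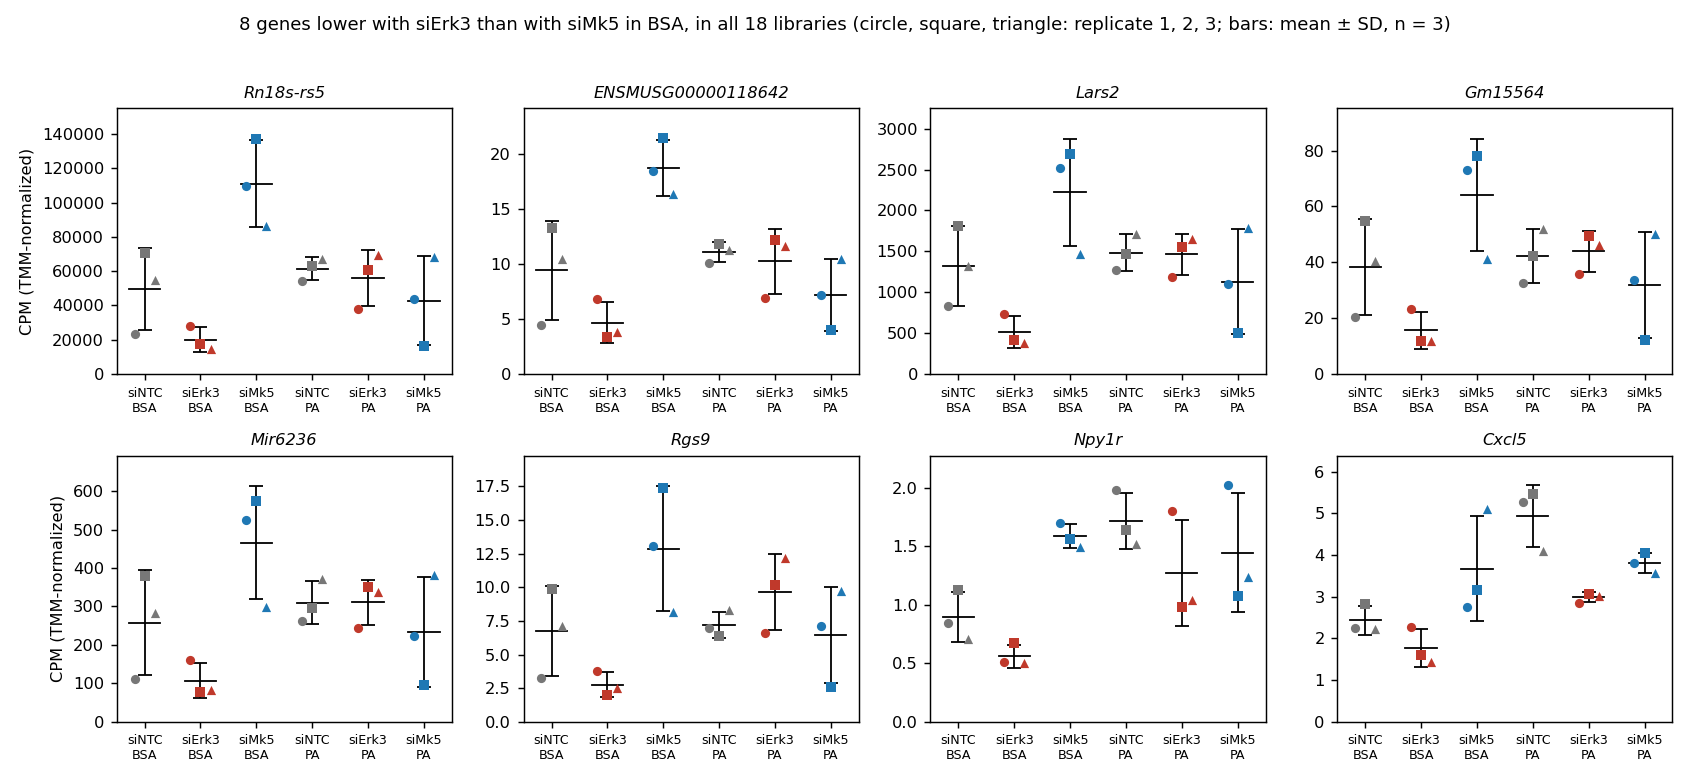
Level of 8 genes lower with siErk3 in all 18 libraries, in 6 groups. Each panel is 1 gene with CPM on a vertical axis; circles, squares and triangles are replicates 1, 2 and 3 and bars are the mean ± SD of 3 libraries. Rn18s-rs5, ENSMUSG00000118642, Lars2, Gm15564, Mir6236 and Rgs9 are low in siErk3 BSA and high in siMk5 BSA but not so ordered in PA, and Npy1r and Cxcl5 are drawn beside them.

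Set beside the non-targeting control, the higher genes had their distance mainly on the siErk3 side. Against siNTC BSA 171 genes (0.785%) were called with siErk3 and 14 (0.0643%) with siMk5. These comparisons share the siNTC libraries with each other and the silenced libraries with the direct contrast. For the 56 interferon-list genes the median was 1.10 for siErk3 over siNTC and -0.02 for siMk5 over siNTC, and for the 49 other higher genes 0.55 and -0.11. For the 6 lower genes whose difference changed with palmitate the medians were -1.33 and 0.85, and for the other 17 lower genes -0.90 and 0.33. Among the genes called between the silencings, Mybpc1, Myot, Trdn and Vdac3-ps1 were called for siMk5 against siNTC, at -0.41, -0.58, -0.82 and 2.77. The rest of the 14 siMk5 calls lay outside that set. On the 5 contractile lists, siMk5 against siNTC gave 2 genes higher, on the myosin heavy chain list, and 4 lower. On the same lists siErk3 against siNTC gave 7 higher, 4 of them myosin heavy chains, and 0 lower.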

How the data were processed

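C2C12 poly(A) RNA was sequenced as stranded pairs, and the authors trimmed, aligned (GRCm39) and counted them with featureCounts 2.0.0 (strand setting 2, minimum mapping quality 3). The deposited values are raw counts per gene. A minimum quality of 3 lets in some pairs that fit more than 1 place. All columns matched a sample, leaving 0 other columns. Samples were grouped by their labels. Genes reaching 10 counts over the 18 libraries together (21772) entered a fit of all libraries with 1 coefficient per group (edgeR 4.0.16 quasi-likelihood test with Benjamini-Hochberg adjustment, TMM scaling, R 4.3.3), and CPM are TMM-scaled. Calls needed an adjusted p under 0.05 and a fold over 1.3. Differences are log2 fold changes from this fit. In simulated data 95.5% of 200 genes changed by 1 log2 unit were recovered in this comparison, with 7 false calls among 21772. The changed genes were drawn from those above 1 CPM on average. Smaller changes, changes at lower levels and a difference in 18S share were not simulated. Replicates differed by more than sampling noise (chi-square per degree of freedom 2.75 to 50.08), so no library was a mere copy of another. Whether they came from the same RNA or culture is not settled by this. Same-numbered libraries of the silencings deviated together with r of 0.02, -0.03 and -0.12 in BSA and 0.52, 0.05 and 0.43 in PA over 10553 genes. Not every pair exceeded 0.1, so the numbers were not taken to pair samples. Promoters came from RefSeq (GRCm38.p6, by symbol). Exonic sequence shared between genes was found on GRCm39 with BLAST 2.17.0, and stretches of at least 40 bases at 95% identity or more counted as shared.

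Named were Mapk6, Mapkapk5 and Rn18s-rs5, the 15 genes per direction with the smallest adjusted p and the 10 with the largest change (at least 1 CPM) whose groups did not overlap, the 10 per direction on no list, the 5 with opposite signs against siNTC, called list members, the 5 leading changes between media, and the 3 most abundant uncalled members of lists; other genes were chosen after their values were seen. The members and lists were chosen with earlier results of these data known. Alternatives were DESeq2 1.42.0, its size factors, other filters, a replicate block, glmTreat, an adjusted p alone, only the groups compared, the 18S share as a covariate, and leaving out single libraries. The precision of low genes is limited by counting, and a count of 0 allows up to 3. Some genes that met the naming rule are not reported here.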

Additional observations from a re-analysis of the deposited data

Results flagged for a closer look

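The difference between the silencings changed with palmitate in 16 genes, each tested in edgeR as the log2 fold change of siErk3 over siMk5 in PA minus that in BSA, and the values of those reported here follow. Of the genes that moved with the 18S RNA, the change was 2.87 for Rn18s-rs5, 2.81 for Rgs9, 2.54 for ENSMUSG00000118642, 2.54 for Mir6236, 2.51 for Gm15564 and 2.50 for Lars2, all negative in BSA. Of the interferon-linked genes, it was 1.20 for Gbp2, 1.12 for Gbp2b, 0.76 for Ifit2, 0.76 for Ly6a, 0.74 for Parp12, 0.57 for Parp10, 0.57 for Tor3a and 0.41 for Znfx1, each positive in both media and larger in PA. Mt2, a metallothionein gene, changed by 0.43, from -0.32 in BSA to 0.11 in PA. With the 18S share as a covariate 1 gene was called for this change, and leaving out single libraries gave between 10 and 33.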

How the results depend on the processing

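The count of 128 genes was within 1.5 times of its value with DESeq2 (127, of which 121 were the same genes), its size factors (128), filterByExpr (121), at least 10 counts in every library (95), without Rn18s-rs5 and the mitochondrially encoded genes (124), an adjusted p alone (178), only the groups compared (180) and each library left out (104 to 121). The replicate block gave 130, with 126 shared, 224 in PA and 18 for the change between media. Same-numbered libraries correlated by -0.12 to 0.02 in BSA and by 0.05 to 0.52 in PA, so pairing was not taken as given. Testing against the fold of 1.3 itself (glmTreat) gave 54 (43 higher, 11 lower), 126 in PA, 5 for the change between media, 51 for siErk3 and 1 for siMk5 against siNTC, 43 shared by both media, 36 list members and 32 interferon-list members. Testing every gene with a count gave 201 (151 higher, 50 lower), 78 for the change between media and 61 for siMk5 against siNTC. An adjusted p alone gave 263 for siErk3 against siNTC, and only the groups compared 34 for siMk5 against siNTC. The 18S covariate gave 78 (74 higher, 4 lower), 1 for the change between media and 111 for siErk3 against siNTC. It reversed Rgs9 (0.245), Gm15564 (0.324), Mir6236 (0.354) and Gm55094 (0.764). Leaving out single libraries gave 179 to 240 in PA, 10 to 33 for the change between media, 113 to 144 for siErk3 and 6 to 25 for siMk5 against siNTC, 70 to 97 shared by both media, 54 to 68 list members and 44 to 56 interferon-list members. The change between media was lowest without siErk3 BSA replicate 2, siMk5 BSA replicate 2 or siErk3 PA replicate 2 and highest without siErk3 PA replicate 1. The siErk3 count against siNTC was lowest without siNTC replicate 2, and the siMk5 count was lowest without siNTC replicate 2 and highest without siMk5 replicate 1. Over the 91 called genes that the naming rule covers there were 1435 values: 1292 kept the call, 139 lost it and 4 reversed, and 52 genes lost it at least once, most often Igtp, Trdn and Gm47586 (9 settings each). The causes were not tested. Few read pairs limit Mapkapk5 (27 to 61 per silenced BSA library), Mx1 (0 to 12) and Ifnb1 (0).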
